A study of Mus musculus with 8 samples.

Results

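The genes described here encode the replication licensing machinery: the subunits MCM2 to MCM7 of the replicative DNA helicase, the helicase loaders Cdc6 and Cdt1, the Cdt1 inhibitor geminin (Gmnn) and the helicase activator Cdc45. They were read at 15 probe sets of 10 genes, a fixed list of identifiers out of 45101 probe sets on the array, of which 11 belong to the MCM subunits and 4 to the other factors. One array was run per mouse on whole-blood RNA, for 4 control and 4 hypoxic animals. Control mice stayed at room conditions in Kathmandu. Hypoxic mice went on an expedition to Mount Everest during which oxygen fell from 21% to about 7% over 15 days, and the comparison asks how blood differed after that exposure. The labels describe no genetic change or drug. The sources used here give no strain, sex or age, and oxygen cannot be told apart from travel or anything else that differed between the groups. The labels number the mice separately, and p-values measure the spread between these mice.

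Before each round of DNA synthesis, the origin recognition complex, Cdc6 and Cdt1 load MCM2 to MCM7 as an inactive ring onto DNA, which licenses the origin. Cdc45 then joins the ring with the GINS complex to form the active helicase, and geminin holds Cdt1 back so that no origin is licensed again in the same cycle. Most white cells in blood are not dividing, while dividing precursors of red and white cells sit mainly in bone marrow and spleen. In whole blood, fewer cells of a type and less RNA per cell cannot be told apart.

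Values are GCRMA log2 expression, given per mouse or as mean with the SD over 4 mice, and changes are hypoxic minus control on the log2 scale with the SE from limma. Probe sets of 1 gene are told apart by the ending of their identifier (_at, _a_at, _s_at, _x_at). A probe set was tested if it exceeded a log2 value of 4 on at least 4 arrays, and called if its Benjamini-Hochberg adjusted p over all 29231 tested probe sets was under 0.05. Correlations across tested probe sets were 0.945 to 0.974 between arrays of a group and 0.869 to 0.927 between arrays of different groups. Control replicate 1 stood apart in holding 56 probe sets bright on its array alone (log2 of at least 4, and at least 2 above every other array), against 0 to 9 on the others. Among 27 probe sets for bacterial genes, which measure background in mouse RNA, 26 changes lay above 0 and 1 below, and the largest was 0.68. Of the mouse control transcripts, the 3' minus 5' difference changed by 1.74 for Tfrc, 1.12 for pyruvate carboxylase, 0.78 for 18S RNA, 0.0096 for beta-actin and -0.23 for Gapdh, and the level at the probe set of the B1 repeat changed by -0.70. The part of these array-wide differences in the results below was not tested. The only marker of another cell type that could be identified, the red cell precursor gene Tfrc, was at 5.07, 5.42, 5.90 and 5.05 in controls 1 to 4 and at 8.54, 9.03, 7.99 and 8.33 in hypoxic mice 1 to 4 at its 3' probe set. The changes of Tfrc were 3.11, 1.37 and 0.92 at its 3', 5' and middle probe sets. That list holds 15 genes and the other 14 are unnamed here, as are all markers of other blood cells, so their part in the results below was not tested.

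Transcription of licensing genes is classically controlled by E2F factors, and the E2F words in their promoters are shown so that the genes can be compared by sequence. The words TTTGGCGC, TTTCCCGC, TTTGCCGC and TTTCGCGC were searched on both strands of RefSeq promoters (GRCm38.p6, 250 bases before to 50 after each annotated start). The promoter table held 9 promoters of 8 of the 10 genes, all but those of Mcm4 and Gmnn. A word was found in 6 of the 9, against 744 of all 32851 promoters (2.26%). The windows below span 30 bases on the gene's strand, with the word, or overlapping words, in capitals. In Mcm6 and Mcm5 a pair of words on opposite strands overlaps, and the Mcm3 windows overlap each other. Every window that starts after the annotated start is marked as such. That start is the one listed for each promoter and can lie inside the gene. The Cdc6 window and the Mcm7 window not so marked fall within the gene positions given below. A match is a description of letters and not a bound site.
Mcm3, chr1:20820275-20820304, minus strand, after the start: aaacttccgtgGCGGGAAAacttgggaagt
Mcm3, chr1:20820263-20820292, minus strand, after the start: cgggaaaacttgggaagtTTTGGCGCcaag
Mcm5, chr8:75109347-75109376, plus strand: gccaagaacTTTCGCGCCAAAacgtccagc
Mcm6, chr1:128359795-128359824, minus strand: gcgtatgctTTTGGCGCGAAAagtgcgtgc
Mcm6, chr1:128359734-128359763, minus strand: gattggacgggTTTGGCGCgaagtagctca
Mcm7, chr5:138172030-138172059, minus strand: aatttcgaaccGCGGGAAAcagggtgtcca
Mcm7, chr5:138171849-138171878, minus strand, after the start: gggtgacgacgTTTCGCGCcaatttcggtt
Cdc6, chr11:98908002-98908031, plus strand: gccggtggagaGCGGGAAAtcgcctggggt
Cdt1, chr8:122568035-122568064, plus strand, after the start: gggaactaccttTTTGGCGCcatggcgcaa

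The promoters of Mcm2 and Cdc45, the genes with a called rise below, held none of the words anywhere in the window. Words lie in promoters of Mcm5 and Mcm7, whose changes lay above 0 and were not called. They also lie in those of Cdt1 and Mcm6, which had a called fall, Mcm6 only at its _x_at probe set. Mcm3 and Cdc6 hold words too and were not tested for a change. A relation of words to changes was not tested, and the lack of a match is likewise a description of letters. The 120 bases before each start are shown for comparison with those of Mcm6, where 3 words lie. Mcm6 was the exception: in all other licensing promoters of the table, those of Mcm5, Mcm7 and Cdt1 among them, these 120 bases held no word.
Mcm2, chr6:88898781-88898900, minus strand: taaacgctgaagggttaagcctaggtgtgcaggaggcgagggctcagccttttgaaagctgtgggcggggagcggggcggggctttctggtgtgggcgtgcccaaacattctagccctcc
Cdc45, chr16:18811973-18812092, minus strand: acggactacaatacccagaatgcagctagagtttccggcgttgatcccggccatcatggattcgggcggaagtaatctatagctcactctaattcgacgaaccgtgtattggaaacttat
Mcm6, chr1:128359706-128359825, minus strand: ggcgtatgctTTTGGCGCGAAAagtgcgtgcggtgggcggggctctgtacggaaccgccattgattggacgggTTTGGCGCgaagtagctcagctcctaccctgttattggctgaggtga

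**Figure D1:**
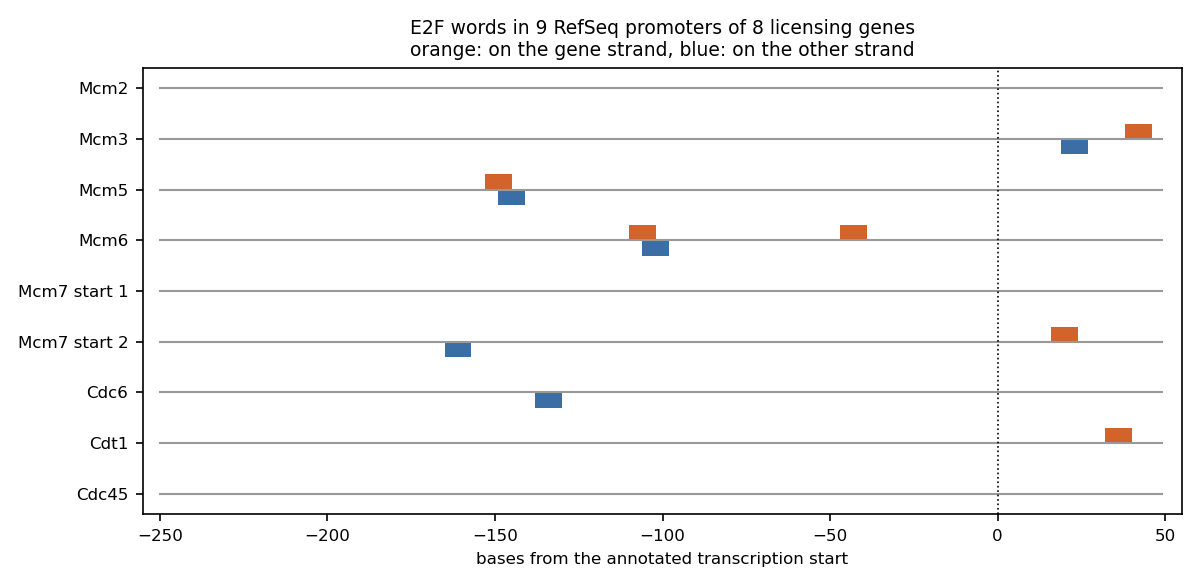
Position of E2F words (boxes of 8 bases) from 250 bases before to 50 after the annotated start of each promoter in the table, in bases on the x axis; boxes above a line are on the gene's strand, those below on the other. Words lie before that start in Mcm5, Mcm6, Mcm7 and Cdc6, after it in Mcm3, Mcm7 and Cdt1, and no box is drawn for Mcm2, Cdc45 and the first Mcm7 start. The words before the start in Mcm7 and Cdc6 still lie within the gene.

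The licensing genes did not move as a block in hypoxic blood. Mcm2 and Cdc45 rose, Cdt1 fell, Mcm6 fell at 1 of its 2 probe sets, and the other tested members did not pass the test. Only the Cdt1 call was kept in all alternative analyses that tested it, as given below. Of the 15 probe sets, 13 (of 8 genes) passed the filter, each on all 8 arrays, so none entered through 1 group alone. The filter left out those of Mcm3 and Cdc6. Of the 13, 2 were called higher and 2 lower, which is 30.8%, against 31.2% of all tested probe sets (12.4% higher and 18.8% lower). The share of licensing probe sets called was thus near that of the array as a whole. Their median change was 0.044 against -0.055 over all tested probe sets, with 7 of the 13 changes above 0 and 6 below. In 4 of the 13 the groups did not overlap, against 31.9% of all tested probe sets.

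**Figure D2:**
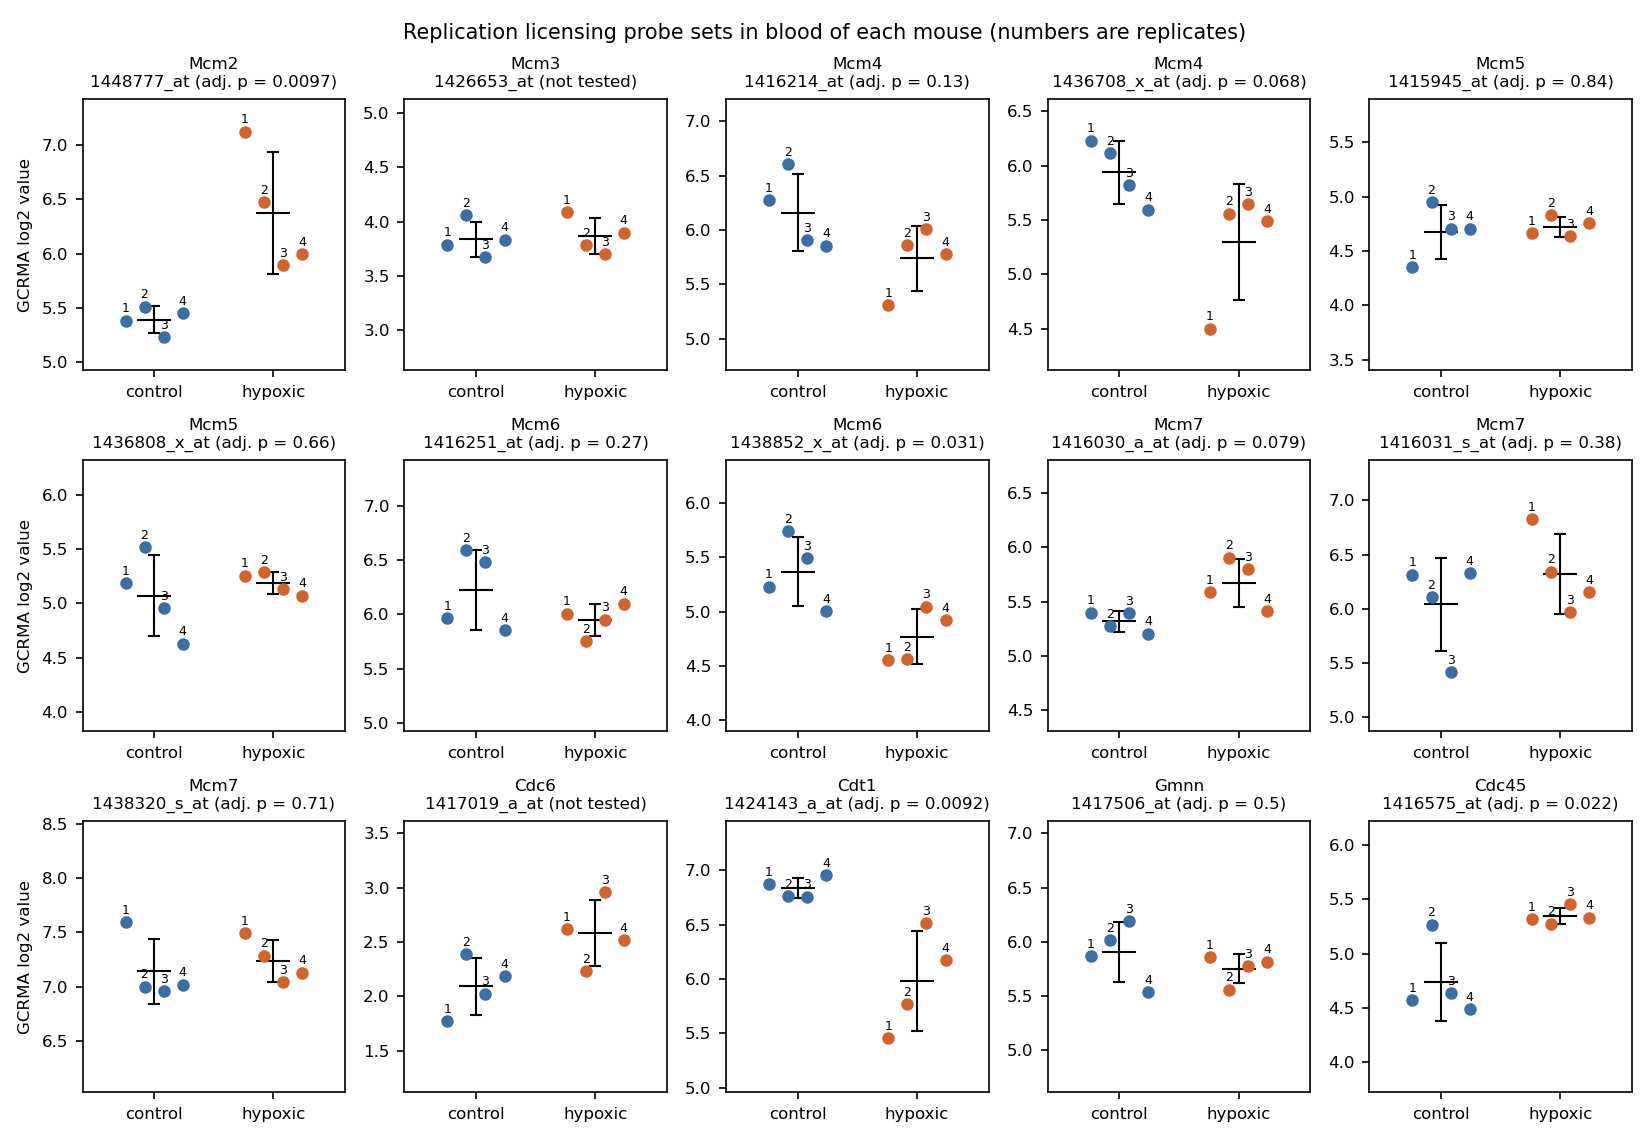
GCRMA log2 value (y axis, each panel spanning 2.5 log2 units) of every licensing probe set in the 4 control (blue) and 4 hypoxic (orange) mice; numbers are replicates, and bars are the mean and SD. The groups are apart for Mcm2, Cdt1, Cdc45 and the first Mcm7 probe set, and hypoxic replicate 1 lies lowest for Cdt1 and both Mcm4 probe sets and highest for Mcm2.

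Mcm2, a helicase subunit whose amino-terminal tail also binds histones, rose in hypoxic mice (probe set 1448777_at, gene on chr6:88883474-88898780, GRCm38.p6). Its level was 5.38, 5.51, 5.23 and 5.45 in controls 1 to 4 and 7.12, 6.47, 5.90 and 5.99 in hypoxic mice 1 to 4. Every hypoxic mouse lay above every control, and the hypoxic mice spread over more than 1 log2 unit while the controls lay close together. The change was 0.98 ± 0.24 (SE) with a 95% interval of 0.46 to 1.495, or 1.97-fold (adjusted p = 0.00968, limma). Without hypoxic replicate 1, the highest, it was 0.73 (adjusted p = 0.0117, limma). The call was lost in a linear model without moderation of the variance (adjusted p = 0.0575) and was kept in the other 16 alternatives that tested it, for which the adjusted p in limma lay between 0.00388 and 0.0288.

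Mcm4 and Mcm6, which form the catalytic core of the helicase together with Mcm7, had changes below 0 at all of their probe sets, and 1 of the 4 passed the test. The Mcm6 probe set ending in _x_at (gene on chr1:128331575-128359705) was at 5.23, 5.74, 5.49 and 5.005 in controls and at 4.55, 4.56, 5.05 and 4.92 in hypoxic mice. The groups overlapped by a narrow margin, since hypoxic replicate 3 lay above control replicate 4. This probe set fell by 0.60 ± 0.19 (SE), or 1.51-fold (adjusted p = 0.0310, limma). The call was lost on leaving out hypoxic replicate 1 (adjusted p = 0.0762, limma), hypoxic replicate 2 (0.0775), control replicate 2 (0.0891) or control replicate 3 (0.0756). It was also lost without variance moderation (adjusted p = 0.0828) and with the replicate number as a block (adjusted p = 0.0514, limma).

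The second Mcm6 probe set, ending in _at, was at 5.97, 6.59, 6.48 and 5.86 in controls and 6.01, 5.75, 5.95 and 6.10 in hypoxic mice. Controls 2 and 3 were high and the other controls lay among the hypoxic mice. Its change of -0.27 ± 0.18 (SE) did not pass (95% interval -0.67 to 0.13, adjusted p = 0.275, limma), and was -0.15 without control replicate 2 and -0.11 after renewed quantile normalization. Per the array's naming convention, the suffix _x_at marks a probe set in which some probes also match other sequences.

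At Mcm4 (gene on chr16:15623897-15637400), the _at probe set was at 6.27, 6.61, 5.91 and 5.85 in controls and 5.31, 5.86, 6.01 and 5.78 in hypoxic mice. Hypoxic mice 2 and 3 lay among the controls. The change was -0.42 ± 0.20 (SE, adjusted p = 0.131, limma), and -0.27 without control replicate 2 or -0.28 without hypoxic replicate 1. The Mcm4 _x_at probe set was at 6.23, 6.12, 5.82 and 5.59 in controls and 4.499, 5.56, 5.65 and 5.49 in hypoxic mice, where hypoxic replicate 1 stood far below the rest. The change there was -0.64 ± 0.25 (SE, adjusted p = 0.0685, limma) and -0.37 without hypoxic replicate 1 (adjusted p = 0.136, limma). It passed the threshold when hypoxic replicate 3 was left out (-0.76, adjusted p = 0.0449, limma).

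Mcm7 (gene on chr5:138164583-138172111), the remaining subunit of the core, had changes above 0 at its 3 probe sets, and none passed. The _a_at probe set came closest. It was at 5.40, 5.27, 5.39 and 5.21 in controls and 5.59, 5.91, 5.80 and 5.41 in hypoxic mice. All hypoxic mice lay above all controls, with hypoxic replicate 4 above control replicate 1 by a hair. The change was 0.36 ± 0.14 (SE, 95% interval 0.042 to 0.67, adjusted p = 0.0787, limma). It passed after renewed quantile normalization (0.45, adjusted p = 0.0427, limma), with arrays centred on their median (0.43, adjusted p = 0.0436, limma) and without hypoxic replicate 4 (0.45, adjusted p = 0.0470, limma). The first _s_at probe set ranged from 5.42 to 6.33 in controls and from 5.97 to 6.83 in hypoxic mice, with a change of 0.28 ± 0.23 (SE, adjusted p = 0.378, limma). It was 0.072 without control replicate 3, 0.11 without hypoxic replicate 1 and 0.44 after renewed quantile normalization. The second _s_at probe set ranged from 6.96 to 7.59 in controls and from 7.04 to 7.49 in hypoxic mice, with a change of 0.094 ± 0.17 (SE, adjusted p = 0.706, limma). With 1 mouse left out in turn it lay between 0.0088 (without hypoxic replicate 1) and 0.24 (without control replicate 1), and it was 0.25 after renewed quantile normalization. Both pairs of ranges overlapped widely.

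Of Mcm5 and Mcm3, regulatory subunits of the ring, Mcm5 did not pass the test and Mcm3 was not tested. Mcm5 (gene on chr8:75109468-75128439) was at 4.35, 4.95, 4.71 and 4.71 in controls and 4.67, 4.83, 4.64 and 4.76 in hypoxic mice at the _at probe set, with the hypoxic mice inside the range of the controls. The change was 0.044 ± 0.15 (SE) with a 95% interval of -0.28 to 0.37 (adjusted p = 0.844, limma). At the _x_at probe set Mcm5 ranged from 4.63 to 5.51 in controls and from 5.07 to 5.29 in hypoxic mice, with a change of 0.11 ± 0.18 (SE) and an interval of -0.28 to 0.51 (adjusted p = 0.660, limma). The sign of each change turned when 1 control was left out (-0.066 without control replicate 1 at the first, -0.036 without control replicate 4 at the second). The Mcm3 probe set 1426653_at (gene on chr1:20802966-20820312) was at 3.79, 4.06, 3.67 and 3.83 in controls and 4.09, 3.79, 3.70 and 3.897 in hypoxic mice. It exceeded the filter level on 2 arrays, 1 per group, and was not tested. Its means were 3.84 ± 0.16 and 3.87 ± 0.17 (SD, n = 4 each), a difference of 0.031.

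**Figure D3:**
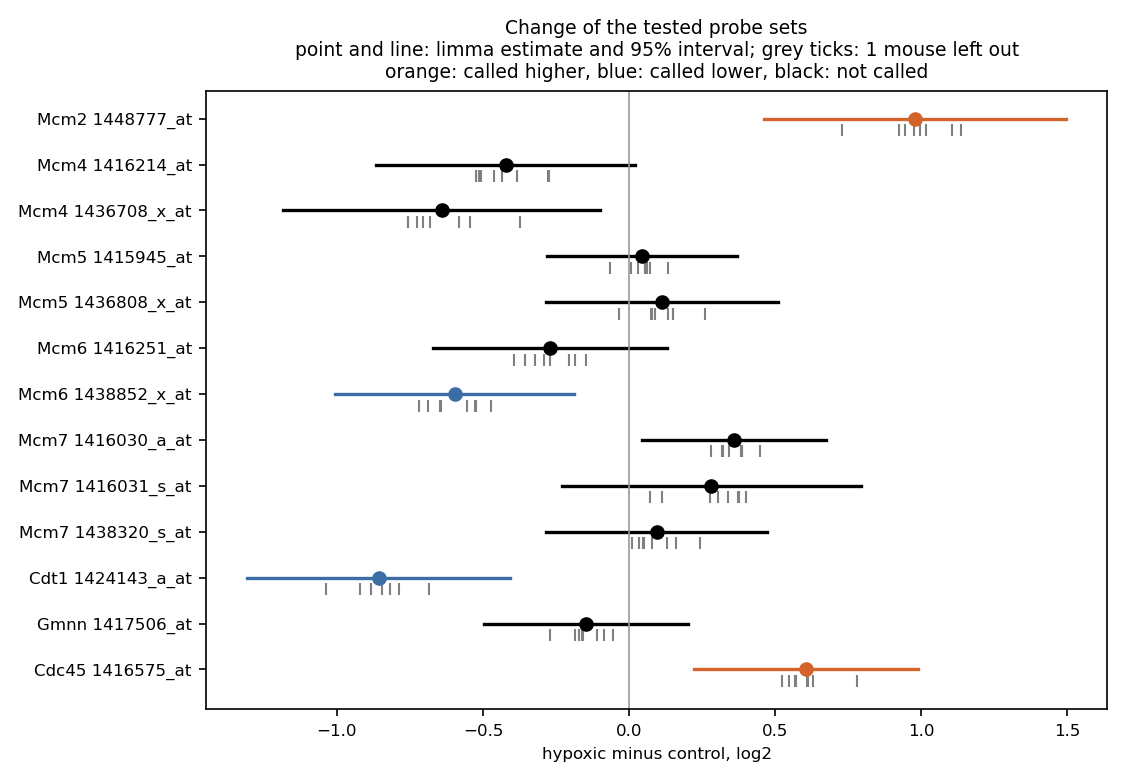
Change (hypoxic minus control, log2, x axis) of the 13 tested probe sets with the 95% interval from limma; grey ticks are the changes with 1 mouse left out. Mcm2 at 0.98 and Cdc45 at 0.61 are called higher (orange), Cdt1 at -0.86 and Mcm6 _x_at at -0.60 are called lower (blue), and the rest (black) are not called.

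Cdt1, the loader that brings the MCM ring to the origin and is destroyed once DNA synthesis begins, fell in hypoxic mice (1424143_a_at, gene on chr8:122568015-122573130). Its level was 6.87, 6.76, 6.76 and 6.95 in controls and 5.46, 5.77, 6.51 and 6.18 in hypoxic mice. No hypoxic mouse reached the lowest control, and the controls lay within a narrow band. The fall was 0.86 ± 0.21 (SE) on the log2 scale, from 6.84 ± 0.094 to 5.98 ± 0.46 (SD, n = 4 each), or 1.81-fold (adjusted p = 0.00919, limma). Cdt1 was called lower in each of the 18 alternatives with a limma or linear model, with changes of -1.04 to -0.68 and adjusted p of 0.0015 to 0.0488. No other licensing probe set was called in all of its alternatives.

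Cdc6, the ATPase that loads the ring together with Cdt1, was below the filter level on all 8 arrays and was not tested. Its probe set 1417019_a_at (gene on chr11:98907709-98923942) was at 1.77, 2.39, 2.02 and 2.18 in controls and 2.62, 2.23, 2.96 and 2.52 in hypoxic mice, and hypoxic replicate 2 lay below control replicate 2. The means were 2.09 ± 0.26 and 2.58 ± 0.30 (SD, n = 4 each), a difference of 0.49, and the mean over the bacterial probe sets went from 2.19 ± 0.039 to 2.499 ± 0.078 (SD) over the same mice. With no filter on level the adjusted p for Cdc6 was 0.0716 in limma. A level this low is a reading near the floor of the method and was not taken as a change.

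Geminin, the inhibitor of Cdt1, did not pass the test (1417506_at, gene on chr13:24751845-24761937). Gmnn was at 5.86, 6.02, 6.19 and 5.54 in controls and 5.86, 5.56, 5.78 and 5.82 in hypoxic mice. The hypoxic mice lay inside the range of the controls. The change was -0.15 ± 0.16 (SE) with a 95% interval of -0.50 to 0.20 (adjusted p = 0.498, limma). It was -0.054 without control replicate 3, -0.085 without hypoxic replicate 2 and -0.27 without control replicate 4, and -0.012 after renewed quantile normalization or -0.077 with arrays centred on their median.

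Cdc45, which turns the loaded ring into the active helicase, rose in hypoxic mice (1416575_at, gene on chr16:18780447-18811972). Its level was 4.57, 5.27, 4.63 and 4.49 in controls and 5.32, 5.28, 5.45 and 5.33 in hypoxic mice. The hypoxic mice lay close together and all above the controls, but control replicate 2 lay just below the lowest of them. The change was 0.61 ± 0.17 (SE) with a 95% interval of 0.22 to 0.99, or 1.52-fold (adjusted p = 0.0221, limma). This rise is smaller than the largest bacterial control change, also a rise. The call was lost on leaving out control replicate 1 (adjusted p = 0.0635, limma), control replicate 3 (0.0562) or control replicate 4 (0.0617), and without variance moderation (0.0614). Without control replicate 2 the change was 0.78 (adjusted p = 0.00314, limma).

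Whether members changed by unequal amounts was tested on differences within each array, so that any scaling of whole arrays cancels. There were 9 differences, 6 between probe sets of 1 gene and 3 between a licensing factor and Cdt1, each tested with an exact permutation test over all 70 assignments of the mice (two-sided, n = 4 per group, smallest possible p = 0.0286), adjusted over the 9. With 9 tests an adjusted p under 0.05 would need 6 or more of them at that smallest value, and only 2 reached it. Both belong to differences that add nothing to the values above. Cdc45 minus Cdt1 went from -2.10 ± 0.42 to -0.63 ± 0.41 (SD), and since each of these genes already had groups that do not overlap, in opposite directions, its groups could not overlap either. Cdc6 minus Cdt1 rests on a Cdc6 reading near the floor, and its change of 1.35 became 0.86, the size of the fall of Cdt1 itself, when values under 4 were set to 4. Gmnn minus Cdt1 differed between the groups by 0.71, from -0.93 ± 0.37 to -0.23 ± 0.47 (SD), and control replicate 3 and hypoxic replicate 3 overlapped (exact permutation p = 0.0571, adjusted 0.129).

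Between probe sets of 1 gene, the largest difference was that of Mcm6, where _x_at minus _at went from -0.86 ± 0.10 to -1.18 ± 0.23 (SD), a change of -0.33 (exact permutation p = 0.0571, adjusted 0.129). The called and the uncalled reading of Mcm6 were thus not shown to differ in their change. The Mcm4 pair differed in change by -0.22 (-0.095 without hypoxic replicate 1), the Mcm5 pair by 0.069, and the Mcm7 pairs by -0.077 to -0.26, with adjusted exact permutation p of 0.343 to 0.857. With 1 mouse left out in turn, the Mcm5 pair lay between -0.088 and 0.22 and the Mcm7 pairs between -0.38 and 0.082.

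**Figure D4:**
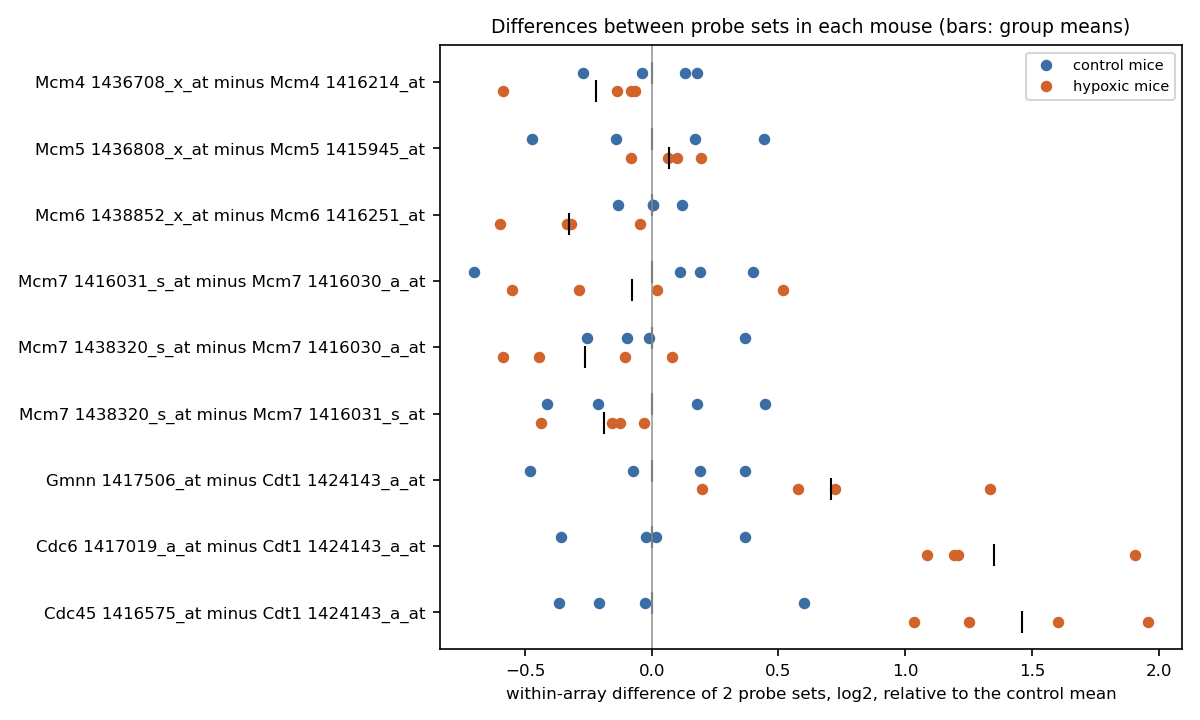
Within-array difference of 2 probe sets (log2, x axis, relative to the control mean) for the 9 tested pairs in each control (blue) and hypoxic (orange) mouse; black bars are group means. The hypoxic mice lie apart from the controls for Cdc6 minus Cdt1, with Cdc6 near the floor, and for Cdc45 minus Cdt1, where each gene alone already lay apart, and the groups overlap in the other 7.

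Among the hypoxic mice, Mcm2 and Cdt1 took opposite orders: from replicate 1 through 2 and 4 to 3, Mcm2 went down (7.12, 6.47, 5.99 and 5.90) and Cdt1 went up (5.46, 5.77, 6.18 and 6.51). The mouse with the most Mcm2 signal thus had the least Cdt1 signal. The order was not particular to this pair: both Mcm7 _s_at probe sets ran as Mcm2 did, and Mcm6 _x_at ran as Cdt1 did. Tfrc at its 3' probe set ran 8.54, 9.03, 8.33 and 7.99 over the same mice, lowest in the same mouse as Mcm2 and highest in another. With 4 mice no correlation was computed. Hypoxic replicate 1 was the highest or lowest of its group at 8 of the 13 tested probe sets, replicate 2 at 6, replicate 3 at 9 and replicate 4 at 3. Among controls, replicates 1 to 4 were the highest or lowest at 4, 7, 5 and 10, with replicate 2 the highest at 7 and replicate 4 the lowest at 8. In any group of 4, 1 mouse is highest and 1 lowest at every probe set, so such counts alone mark no mouse as unusual. Without control replicate 1, 1 licensing probe set was called higher (Mcm2) and 2 lower, and without hypoxic replicate 1, 2 were called higher and 1 lower (Cdt1).

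In the authors' deposited table of a significance analysis of microarrays (SAM), 14 of the 15 probe sets are listed, all but Cdc6. Of these, 6 had a q-value under 5% in the authors' deposited table, 3 higher and 3 lower, which is 42.9% against 36.5% of all 38206 listed probe sets (16.5% higher and 20% lower). The added pair beside the limma calls were Mcm7 _a_at and Mcm4 _x_at, both with a q-value of 3.06% in the authors' deposited table. The lowest q-values in the authors' deposited table were those of Cdt1 (0.354%, fold 0.573) and Mcm2 (0.460%, fold 2.08). These folds are ratios of mean linear values, hypoxic over control. The folds given further above come from the log2 change, and for falls they are control over hypoxic. Cdc45 had a q-value of 1.10% and Mcm6 _x_at one of 1.43% in the authors' deposited table. That table was made from the same arrays and was used to read the values, so it is no independent measurement.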

How the data were processed

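The series holds 1 Affymetrix array per mouse from 100 µl of blood. The submitters' processing notes name GCRMA and Partek without versions. How the background correction of GCRMA affects changes of dim probe sets was not tested. The deposited log2 values had lost their decimal points (5.63828 had become 563.828) or had become spreadsheet day numbers. For probe sets listed in the authors' SAM table, each value was read so that the hypoxic minus control mean gave the deposited log2 difference within 5e-06. Exactly 1 reading did so for 38201 of 38206 listed probe sets. The deposited linear fold, not used for this, was then met within 1.65e-06 in relative terms. The 6895 probe sets outside that table, Cdc6 among them, were read from their rows alone, without such a check. The deposited SAM table also holds, per the file headers, a score, a denominator and a q-value in percent.

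The 64 array control probe sets were left out and 29231 probe sets were fitted with limma 3.58.1 (R 4.3.3, lmFit and eBayes, group as the only term, two-sided). The fit was tested on simulated data. The reading was tested on restored rows that were damaged again in the same way, which is no independent check of the restored values. Precision is limited by the number of arrays. Values were read with pandas 2.3.3 and numpy 2.4.6 under Python 3.11.15 and plotted with matplotlib 3.10.9.

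The members, gene lists and tests were chosen with earlier results of these data known. All 15 members are named, with their genes as listed in the rule that defines them. Genes with several probe sets were read at 1416214_at and 1436708_x_at (Mcm4), 1415945_at and 1436808_x_at (Mcm5), 1416251_at and 1438852_x_at (Mcm6), and 1416030_a_at, 1416031_s_at and 1438320_s_at (Mcm7, in this order). No other table used here pairs probe sets with genes, so 86 other replication genes in 11 lists, and 80 of 81 blood cell and proliferation markers, were not analysed here; the exception is Tfrc, named in a control probe set. Gene positions and promoters are from RefSeq (GRCm38.p6). Alternatives for the filter, variance model, scaling, floor, array weights, a replicate block, the authors' q-value and each mouse left out were run.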

Additional observations from a re-analysis of the deposited data

Results flagged for a closer look

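In 48 groups of 4 mice (15 probe sets and 9 differences), 4 had a value that stood apart from the other 3 by Dixon's criterion, where chance gives about 2.4. Hypoxic replicate 1 gave 3 of the 4, but the differences are built from the same probe sets. Both of its Mcm4 flags share the same low _x_at reading and are not separate observations. At the Mcm4 _x_at probe set this mouse was at 4.499 while the other hypoxic mice lay between 5.49 and 5.65, and its difference between the Mcm4 probe sets (_x_at minus _at) was -0.81, with the others between -0.36 and -0.29. Its Cdc6 minus Cdt1 difference was -2.84, with the others between -3.66 and -3.54, but Cdc6 was near the floor of the method on all 8 arrays, so this difference has no firm size. At the second Mcm7 _s_at probe set, control replicate 1 was at 7.59 while the other controls lay between 6.96 and 7.02. Without that control the change there was 0.24 (adjusted p = 0.275, limma), and 0.094 with it.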

How the results depend on the processing

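Of the licensing probe sets, 2 were called higher and 2 lower in the main analysis. With the stricter filter (log2 above 6), under which fewer probe sets are tested, 0 were called higher and 1 lower (Cdt1). Of the members it tested only Mcm6 _at, both Mcm7 _s_at and Cdt1, so Mcm2, Cdc45 and Mcm6 _x_at could not be called there. The linear model without moderation also gave 0 and 1 (the cause was not tested). In that model Mcm2, Cdc45 and Mcm6 _x_at missed the threshold, with adjusted p of 0.0575, 0.0614 and 0.0828. Blocking on the replicate number (replicate block), 2 were called higher and 1 lower, Mcm6 being lost. The same-numbered mice are different animals, and their deviations correlated at -0.11, -0.056, -0.10 and 0.062, so no pairing was seen. With 1 mouse left out in turn, 1 to 3 were called higher and 1 to 3 lower. Signs turned only with a mouse left out: Mcm5 ranged from -0.066 to 0.134 at _at and from -0.036 to 0.26 at _x_at, the difference in change of the Mcm5 pair from -0.088 to 0.217, and that of the first Mcm7 _s_at minus _a_at from -0.311 to 0.082. With values under 4 set to 4, Cdc6 minus Cdt1 changed by 0.86 in place of 1.35. Over all 29231 probe sets, 3614 were called higher and 5500 lower (9114 in all). The stricter filter gave 5809 calls, 1978 of them higher, the linear model without moderation 3607 lower, and the authors' q-value 13934, 6294 of them higher. The share of calls that were higher was 39.7%, and 51% (4631 against 4458) with arrays centred on their median. The replication lists, and a version of them with a single probe set for each gene, were not run for want of gene names. Mcm3 and Cdc6 lie too near the floor of the method for a change to be read.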
